A study of Bos taurus with 15 samples.

Results

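The thymus of untreated Holstein cows was described from the 7 samples whose treatment label is none, out of 15 bovine thymus samples in the study. Thymus tissue was collected at slaughter, and RNA of 1 animal was hybridised with 1 dye to 1 Agilent array of bovine oligonucleotide probes. The other 8 cows had been given prednisolone by mouth, 30 mg per head daily for 35 days, and their arrays were not analysed here. The series title calls the animals cows and the labels give the Holstein breed, with no age, sex field or genotype. The protocol field repeats the prednisolone dosing for all samples, and untreated animals were told from their treatment entry, none. Each sample is a piece of whole tissue, so that fewer cells of a type and less RNA per cell cannot be told apart. The 7 animals are numbered in the order of the samples, and the numbers carry no other meaning.

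T cells are made in the thymus. Precursors that arrive from the blood divide in the cortex, rearrange their T cell receptor genes with the help of RAG1 and DNTT, and pass through a stage at which they carry CD8 and CD4 together. Cortical epithelium, which expresses the protease PRSS16, selects cells with a usable receptor, medullary epithelium and dendritic cells remove those that react to the body's own proteins, and macrophages clear the many cells that die. In adult animals part of the organ is replaced by fat.

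Values are log2 of the scanner's processed signal minus the 75th percentile of the array, so that 0 is the 75th percentile. A gene was represented by its brightest probe, and a percentile gives the place of that probe among the 21475 bovine probes of the array. Probes differ in how well they bind their target, so the percentile ranks probe signals and is not a measure of how many transcripts of a gene there are. A probe was counted as above background on an array if the scanner software marked a share of at least 0.5 of its spots as well above background. Pairs of arrays had Pearson r between 0.983 and 0.992 over all probes, a description only since probes are no replicates. Between 67.1% and 73.5% of the bovine spots of an array were well above background. The arrays lay on 3 slides: slide 1 held animals 1, 2 and 5, slide 2 held animal 3, and slide 3 held animals 4, 6 and 7. Slide and animal cannot be told apart.

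Of the 5 genes taken as markers of thymus, all but RAG1 were bright in every animal. CD3E, a chain of the T cell receptor complex, had a lowest value of 4.22, a median of 4.46 and a highest value of 4.63. CD8A, the co-receptor chain of thymocytes and cytotoxic T cells, ranged from 4.42 to 4.84 with a median of 4.67. TCF7, a transcription factor needed for T cell commitment, ranged from 4.58 to 5.00 with a median of 4.79. The means and SD of these 3 genes were 4.45 ± 0.14, 4.65 ± 0.14 and 4.77 ± 0.14 (SD, n = 7), at mean percentiles between 98.8 and 99.1. PRSS16, the protease of cortical thymic epithelium, ranged from 6.19 to 6.47 with a median of 6.32, at a mean percentile of 99.7. No animal stood apart in these 4 genes.

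RAG1, which cuts DNA for receptor gene rearrangement, was lower on the signal scale and less even. It was above background on all 7 arrays, ranged from -2.67 to -1.58 with a median of -2.14, and had a mean percentile of 58.6. The 3 animals of slide 3 had the lowest values, -2.59, -2.63 and -2.67, and the values of the other 4 lay between -2.14 and -1.58 without overlap. Of the variance of RAG1 between animals, 85.8% lay between slides. The difference of slide 3 minus slide 1 was -0.83 ± 0.16 (SE, limma adjusted p = 0.0363 over all probes tested), in a comparison that rested on single animals, as given with the slide results.

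**Figure D1:**
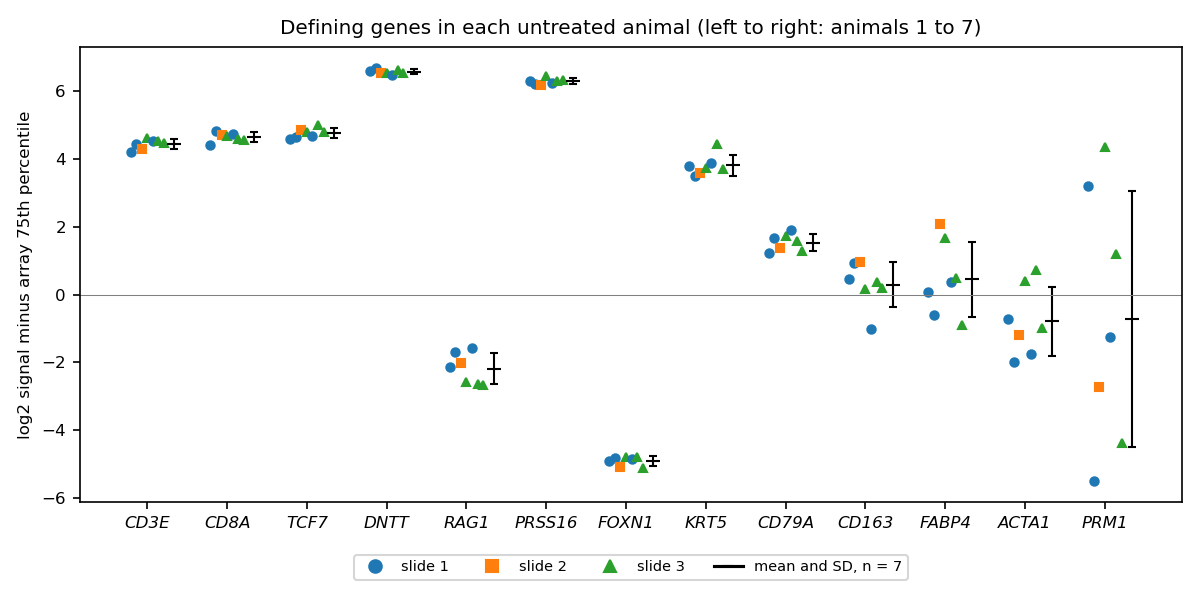
Value of 13 defining genes in each untreated animal, as log2 signal minus the array's 75th percentile; points of a gene run from animal 1 on the left to animal 7 on the right, colour and shape give the slide, and the black bar is the mean ± SD (n = 7). CD3E, CD8A, TCF7, DNTT and PRSS16 sit above 4 in all animals with little spread, RAG1 is lowest in the 3 animals of slide 3, and PRM1 spans -5.51 to 4.37.

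Most of the named genes on the array were measurable in thymus. Of 14727 genes, 10616 (72.1%) had a brightest probe above background on all 7 arrays, and 2015 had it on none. For 2007 genes no probe at all was above background on any array. Of all probes, 14161 (65.9%) were above background on all 7 arrays and 3793 on none. Genes listed as markers of cells that a thymus sample may hold were above background on all 7 arrays for 244 of 308 (79.2%), and genes of distant tissues such as liver, brain, kidney and retina for 24 of 57 (42.1%), against 72.1% over all genes. A share of this size among distant-tissue genes gives the level at which being above background says little about a cell type. The 72.1% of all genes is the share to set beside the count of each list below. A bright probe has a similar limit. GRIN1, on the brain list, was above background on all 7 arrays, with means of 5.52 on slide 1 and 4.75 on slide 3. The highest mean percentile of that list was 99.3.

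Signal was concentrated in few probes. The brightest 10 probes of an array held 4.66% to 5.79% of the summed signal, the brightest 100 held 26.5% to 31.2%, and the brightest 1000 held 61.7% to 65.0%. The same genes led in every animal: 87 genes were among the 100 brightest of all 7 animals, and 115 were among the 100 brightest of at least 1.

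Of the 25 genes with the highest mean signal, 19 encode proteins of the cytosolic ribosome. RPS14 led with 7.89 ± 0.23 (SD, n = 7), followed by TMSB4X, the actin-binding thymosin beta 4, with 7.82 ± 0.14. RPS10 and RPS3 followed with 7.71 ± 0.19 and 7.71 ± 0.17. The other 5 were the mitochondrial genes COX3 (7.58 ± 0.17) and COX2 (7.14 ± 0.11), subunits of cytochrome c oxidase, the zinc finger gene PRDM15 (7.48 ± 0.26), the actin-binding protein gene ACTN4 (7.29 ± 0.34) and the linker histone gene H1-10 (7.24 ± 0.27). The rank of ACTN4 rested on 1 of its 2 probes: the other had a mean of 0.31, at a mean percentile of 77.6.

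As a list, ribosomal protein genes held the top of the range. Of 73 with a probe, 72 were above background on all 7 arrays, and the median percentile was 99.7. RPS27A was not above background on any array. Translation factors included, at the top, the elongation factor EEF2 (6.55 ± 0.08), whose 2 other probes had means of -1.17 and -2.08. Cytoskeletal, chromatin and housekeeping genes had a median percentile of 99.4, with the tubulin gene TUBA1B at 6.89 ± 0.10. The second probe of TUBA1B had a mean of -1.66. Animal 5 had the highest value for 51 of the 72 ribosomal protein genes, against 1702 of all 10616 genes.

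Genes of immature thymocytes were the brightest list of any cell type. All 25 with a probe were above background on all 7 arrays, with a median percentile of 88.3. DNTT, the enzyme that adds bases at receptor gene joints and is a defining gene of developing lymphocytes, had 6.58 ± 0.07 (SD, n = 7), with a lowest value of 6.49, a median of 6.55 and a highest of 6.70. CD8B, the partner of CD8A, had 5.97 ± 0.24. BCL11B, which fixes T cell identity, had 4.58 ± 0.15, and SATB1, an organiser of chromatin in thymocytes, had 3.90 ± 0.12. PTCRA, the partner of the newly made receptor beta chain, ranged from 0.63 to 1.28 with a median of 1.06. CD1E and LEF1, further genes of the double-positive stage and its precursors, had 3.00 ± 0.24 and 2.43 ± 0.17. Within the list the largest spread belonged to SMPD3, a sphingomyelinase, with 0.92, from -5.39 in animal 7 to -2.61 in animal 1, and to ADA, the adenosine deaminase whose loss causes immunodeficiency, with 0.50.

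Genes of the receptor complex and of T cells in general spread over the whole range of signal. Of 18 with a probe, 16 were above background on all 7 arrays, with a median percentile of 74.0. CD247, the zeta chain, had 6.19 ± 0.09, and SIT1, an adaptor of receptor signalling, had 5.64 ± 0.09. The kinase ZAP70 had 4.09 ± 0.23, and CD3G 3.84 ± 0.11. CD5 was not above background on any array, and THEMIS, a regulator of thymocyte selection, was on 5 of 7. THEMIS was -4.35 to -4.71 in animals 1, 2, 3 and 5 and -5.81 to -6.31 in animals 4, 6 and 7, so that the animals of slide 3 were lowest, as for RAG1. CD28, the co-stimulatory receptor, had an SD of 0.53, with 95.6% of its variance between slides, and the mean percentile of its brightest probe was 43.2.

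Genes of dividing cells were bright. Of 35 with a probe, 33 were above background on all 7 arrays, with a median percentile of 80.7. The median SD among those 33 was 0.16, with a highest SD of 0.53. Over all genes above background on all 7 arrays it was 0.19, and 0.15 in the band of genes with means from 0.20 to 1.74. MCM7 and MCM2, subunits of the helicase that opens replication origins, had 4.39 ± 0.06 and 3.89 ± 0.13. RRM1, which makes building blocks of DNA, had 4.39 ± 0.09. TOP2A, the topoisomerase of dividing cells, had 3.77 ± 0.16, and PLK1, a kinase of mitosis, had 3.81 ± 0.12. KIF11 was not above background on any array, and MCM3 was on 2.

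Of 13 genes of mature and regulatory T cells with a probe, 10 were above background on all 7 arrays, a share of 76.9% near the 72.1% of all genes. They were led by the integrin ITGB7 (3.59 ± 0.14) and the lymph node homing receptor CCR7 (1.84 ± 0.21). A second probe of CCR7 had a mean of -3.82. FOXP3, the factor that defines regulatory T cells, was not above background on any array, while the interleukin 2 receptor gene IL2RA, which those cells also carry, had -1.10 ± 0.29. IL7R, the interleukin 7 receptor, had the largest spread, with a lowest value of -3.23 and a median of -2.18. The 3 animals of slide 3 held its lowest values. Of the gamma delta T cell list only 2 genes had a named probe, CD163L1 (1.61 ± 0.57), which the array's own description calls DMBT1, and ZBTB16 (-2.61 ± 0.61).

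Of 15 genes of cytotoxic and natural killer cells, 8 (53.3%) were above background on all 7 arrays, below the 72.1% of all genes. The chemokine CCL5 had 2.04 ± 0.47, perforin PRF1 1.67 ± 0.24 and the protease CTSW 1.29 ± 0.32. GZMA and the natural killer receptor NCR1 were not above background on any array. The CCL5 value of animal 6, 1.04, lay below the other 6, which ranged from 1.96 to 2.39.

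Genes of cortical thymic epithelium were all detected. The 11 were above background on all 7 arrays, with a median percentile of 64.5. CCL25, the chemokine that draws thymocyte precursors, had 4.44 ± 0.23, and TBATA, a gene of thymic stroma, had 3.62 ± 0.14. FOXN1, the master factor of thymic epithelium, was dim but even at -4.91 ± 0.14. PSMB11, the proteasome subunit found in cortical epithelium, varied most, from -2.59 in animal 2 to -0.75 in animal 7 with a median of -1.27.

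Of 17 medullary and general epithelial genes, 14 were above background on all 7 arrays, with a median percentile of 66.2. The keratins KRT5, KRT8 and KRT18 had 3.81 ± 0.30, 2.98 ± 0.31 and 2.75 ± 0.40. KRT5 was 4.43 in animal 6 and at most 3.90 in the other 6. CCL21, a chemokine of the medulla, had the largest spread of the list, -1.07 ± 0.70. FEZF2, a factor of self-antigen expression in the medulla, was not above background on any array.

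Of 12 B cell genes 10, and of 6 plasma cell genes 5, were above background on all 7 arrays, 83.3% each against 72.1% of all genes. CD79A, a chain of the B cell receptor, ranged from 1.23 to 1.89 with a median of 1.58. The kinase BLK had 1.13 ± 0.38, the receptor TNFRSF13C 0.02 ± 0.17, and CR2 and BANK1 were not above background on any array. XBP1, the secretion factor of plasma cells, had 2.13 ± 0.22, MZB1 1.02 ± 0.23 and JCHAIN, the joining chain of antibodies, -1.82 ± 0.33. Of 13 dendritic cell genes 10 were above background on all 7 arrays (76.9%), led by the chemokine CCL19 (4.79 ± 0.33), which thymic epithelium also makes, the actin-bundling FSCN1 (2.25 ± 0.23) and LAMP3, a gene of mature dendritic cells (1.85 ± 0.20). XCR1 was not above background on any array.

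Macrophage genes were above background on all 7 arrays for 18 of 19. TIMD4, a receptor for dying cells, had 2.88 ± 0.36, HMOX1, which breaks down haem, 2.62 ± 0.32, and the complement gene C1QA 2.57 ± 0.47. CD163, the receptor for haemoglobin, was -1.03 in animal 5 and between 0.15 and 0.96 in the other 6. The mean over these 18 genes was also lowest in animal 5, at -0.82, against -0.40 to 0.00 in the others. MARCO was the 1 gene that was not above background on all arrays, with 4 of 7.

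Neutrophil genes had a median percentile of 85.0, the highest of any cell list after immature thymocytes. Of 14, 12 were above background on all 7 arrays, and CXCR1 and MMP8 were not. CATHL1, an antimicrobial peptide stored in granules, had 5.16 ± 0.34, and the calcium-binding proteins S100A12 and S100A8 had 3.47 ± 0.24 and 2.76 ± 0.27. Other members were dim: CSF3R had means of -3.73 on slide 1 and -3.84 on slide 3, and MMP9 of -1.40 and -1.31. All of the 12 highest values fell in animals 1 to 4, with 2, 4, 2 and 4 genes. Of all 10616 genes above background on 7 arrays, these animals held the highest value for 1179, 1672, 1031 and 1860. The mean over the 12 neutrophil genes was 1.27 to 1.47 in animals 1 to 4 and 0.96 to 0.99 in animals 5, 6 and 7. Of 11 erythroid and platelet genes, 7 (63.6%) were above background on all 7 arrays, below the 72.1% of all genes, with a median percentile of 38.9. The globin genes were the bright ones: HBA ranged from 4.19 to 5.93 with a median of 4.94, and HBB had 2.12 ± 0.65. ALAS2 had means of -2.19 on slide 1 and -1.93 on slide 3, and AHSP of -1.85 and -1.66. Neutrophils and red cells also circulate, and how much of these values belonged to blood in the vessels was not tested. Of 6 mast cell and eosinophil genes, 4 (66.7%) were above background on all 7 arrays. The mast cell gene TPSB2, a tryptase, had -1.30 ± 0.61, and HDC had means of -4.68 on slide 1 and -4.45 on slide 3.

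Genes of vessels, connective tissue, nerve and neighbouring glands are given beside the 72.1% of all genes that were above background on all 7 arrays. Endothelial genes were above background on all 7 arrays for 16 of 18, with EGFL7 at -0.09 ± 0.25, ENG at -0.88 ± 0.17 and the clotting factor VWF at -1.22 ± 0.28. Fibroblast and matrix genes were so for 22 of 24, with fibronectin FN1 at 2.89 ± 0.21, SPARC at 2.20 ± 0.31 and the proteoglycan BGN at 0.94 ± 0.23. FN1 was 3.35 in animal 6 and between 2.72 and 2.96 in the others. Smooth muscle and pericyte genes were so for 13 of 16, led by NOTCH3 (3.07 ± 0.25), MCAM (2.25 ± 0.12, second probe -4.75) and the myosin light chain MYL9 (1.01 ± 0.18). Nerve genes were so for 6 of 12, below the share of all genes, and thyroid and parathyroid genes, which mark glands near the thymus, for 4 of 12, with means of these 4 from -6.11 to -4.12. NKX2-1, TSHR and SLC5A5, defining genes of thyroid, were not above background on any array.

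**Figure D2:**
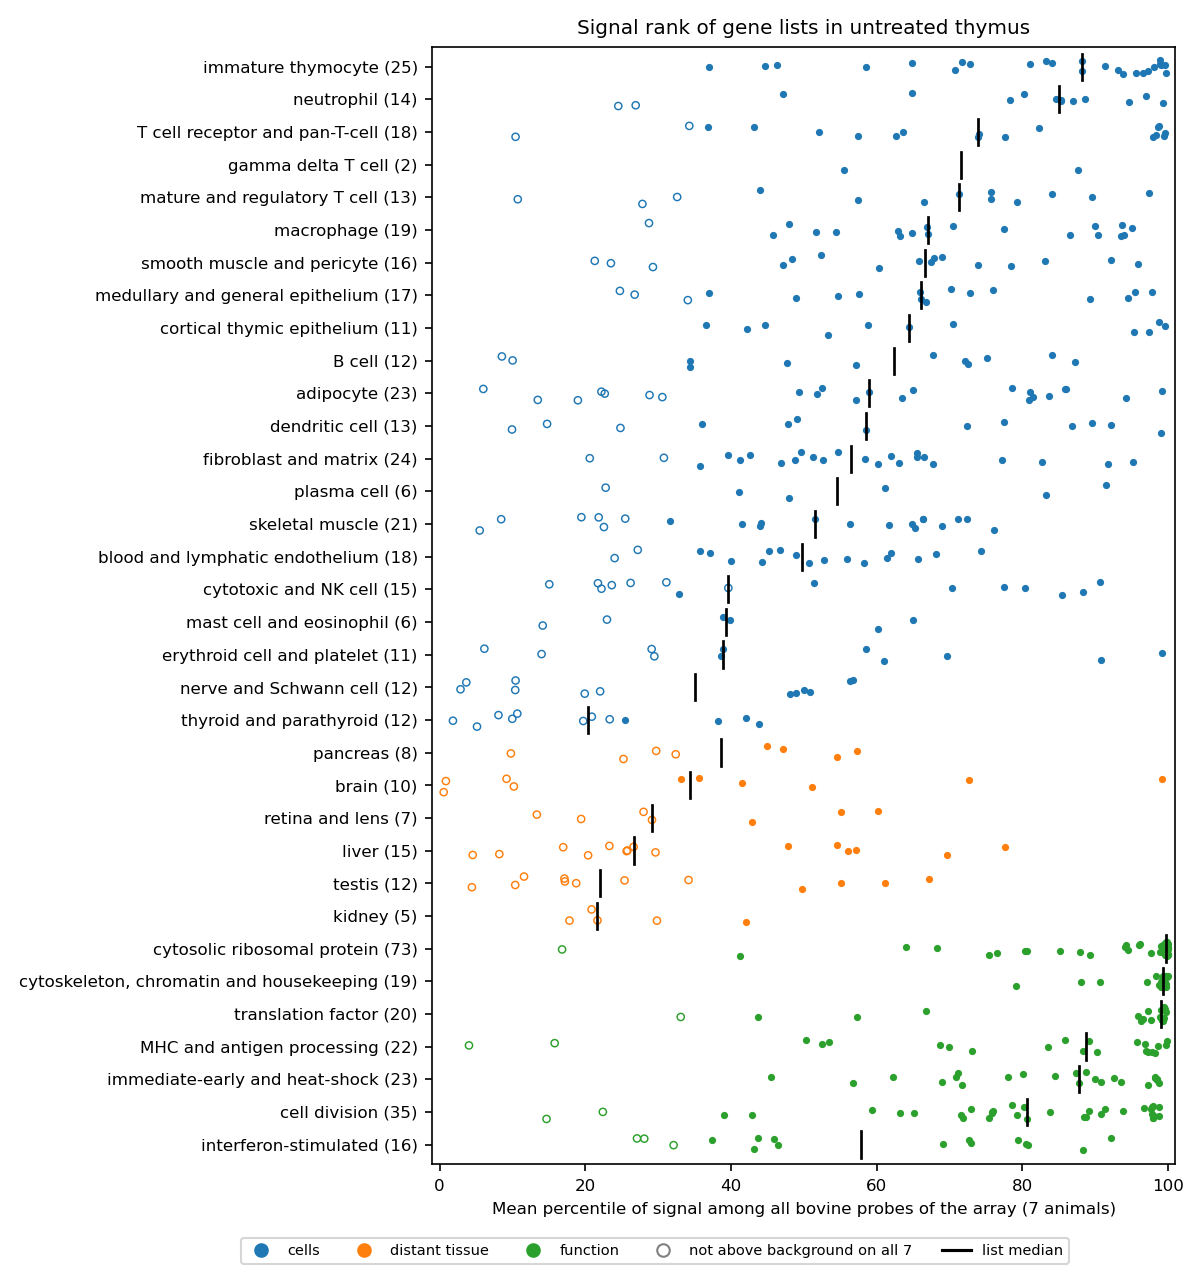
Mean percentile of signal over 7 animals for each member of 34 gene lists; colours give the class of list, filled points were above background on all 7 arrays, open points were not, black bars are list medians, and the number of genes with a probe follows each name. Immature thymocyte genes have a median of 88.3 and no open point, and ribosomal protein genes crowd at 99.7. The distant tissues have medians between 21.7 and 38.7, and the brightest gene of the brain list lies at 99.3.

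Genes of antigen presentation were bright, with 20 of 22 above background on all 7 arrays. The class I gene named BOLA had 7.09 ± 0.19, its light chain B2M 6.83 ± 0.14 and the class II chain BOLA-DRA 4.26 ± 0.11. The peptide transporter TAP1 was lowest in animal 6, at 0.83, with a median of 2.32. Interferon-stimulated genes were above background on all 7 arrays for 13 of 16, led by ISG15 (2.29 ± 0.45), and the antiviral gene MX1 ranged from -1.07 to 0.64 with a median of -0.47.

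Genes that respond to stress within minutes were all measurable. All 23 immediate-early and heat-shock genes were above background on all 7 arrays, with a median percentile of 87.8. The chaperones HSPA1A, HSP90AA1 and HSPB1 had 4.57 ± 1.05, 4.47 ± 0.44 and 4.22 ± 0.32. Animal 6 held the highest value for 10 of the 23 genes, against 12.6% over all genes measured on 7 arrays. In that animal HSPH1, a co-chaperone, was 5.12, HSPA1A 6.61 and HSP90AA1 5.35, and the medians over the 7 animals were 2.15, 4.57 and 4.24. Of the 2 other probes of HSPA1A, 1 had a mean of 1.49 and an SD of 1.03. Over the whole list the SD ran from 0.09 to 1.21 with a median of 0.32, and among the immediate-early genes FOSB had 0.65 and FOS 0.14.

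The spread between animals was small for most genes. Over the 10616 genes above background on all 7 arrays the median SD was 0.19 on the log2 scale, 25% of genes had an SD under 0.13, 75% under 0.30 and 95% under 0.53. The duplicate spots of a probe on 1 array had a median SD of 0.091, so that the spread between animals was 1.98 times that of the spots at the median, and 1945 genes had an SD between animals below that of their spots. The SD of spots is that of single spots, while the value of an animal is a mean over the spots of a probe. The 2 SDs are therefore not like measures, and the ratio understates the spread between animals. Dim genes varied more: the median SD was 0.30 in the dimmest of 5 bands of equal size and 0.13 in the brightest. The 10 most even genes were RNF145, PSMC4, DDX24, FANCG, WDR26, NTAN1, COG3, XRCC5, DOLPP1 and TMEM43. RNF145, a ubiquitin ligase, had 1.15 ± 0.03, and PSMC4, a proteasome subunit, 2.99 ± 0.03. For COG3 and DOLPP1 a second, dim probe was above background on 1 of 7 arrays.

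An SD over 1 was found for 72 of the 10616 genes (0.678%). ARIH2 and CBY2 lay just inside this limit with 1.005 and 1.004, and CCN1 and FKBP5 just outside with 0.991 and 0.990. Most of these genes fell into a few groups that shared their order of animals, described here after their values were seen. The 2 highest values were those of animals 4 and 1 for 21 of the 72 genes, against 4.91% of all genes, those of animals 6 and 4 for 11, against 7.59%, and those of animals 3 and 4 for 11, against 2.98%.

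**Figure D3:**
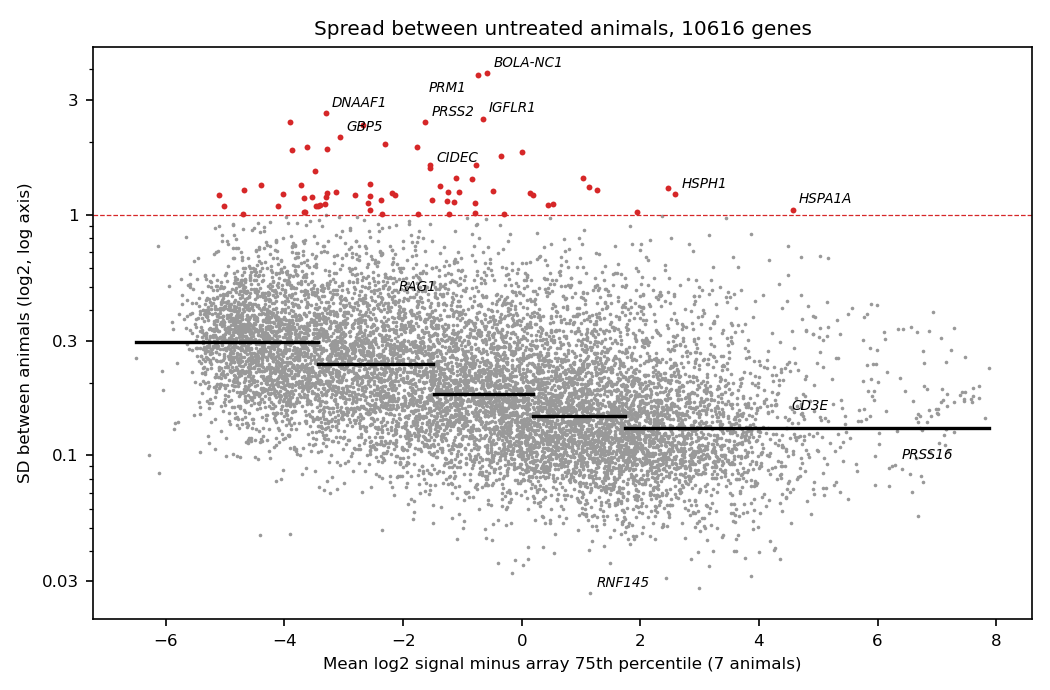
SD between the 7 animals (log axis) against mean signal for 10616 genes above background on all 7 arrays; black bars are the median SD in 5 bands of equal size and red points have an SD over 1 (dashed line). The median falls from 0.30 to 0.13 with signal, and PRM1 and BOLA-NC1 lie far above the rest.

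The 21 genes highest in animals 4 and 1 included several known from male germ cells, of which PRM1 and TNP2 are on the testis list, and also MIC1, related to MHC class I, and PGAM2, a muscle enzyme. PRM1, a protamine that packs DNA in sperm heads, was 4.37 in animal 4, 3.21 in animal 1, 1.21 in animal 6, -1.25 in animal 5, -2.74 in animal 3, -4.40 in animal 7 and -5.51 in animal 2. TNP2, a transition protein of spermatids, was -0.31 and -1.31 in animals 4 and 1 and between -5.21 and -2.90 in the others. GSG1, a germ cell gene, DNAJB8, a chaperone gene of testis, H1-9, a linker histone of spermatids, and ODF2, a protein of the sperm tail, also had their highest values in animals 4 and 1. DNAAF1, needed for the assembly of motile cilia and flagella, was 0.83 and -0.52 there, and -5.82 in animal 7. The series title speaks of cows, and no label states the sex of single animals.

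Not every testis gene took part. Of 12 testis genes with a probe, 4 were above background on all 7 arrays, and 3 of those 4 had their 2 highest values in animals 4 and 1. SYCP3, a protein of meiotic chromosomes, was even at -2.65 ± 0.11, and PRM2, DAZL and ACRV1 were not above background on any array. TNP1, another transition protein, was 0.03 in animal 4 and -8.18 in animal 7 and was above background on 3 of 7 arrays. The mean over the 4 genes above background on all arrays, PRM1 among them, was 0.09 in animal 4, -0.56 in animal 1 and -1.67 in animal 6, and between -3.70 and -2.44 in the other 4. The Y-linked gene SRY was not above background on any array, and the probe of ZFY, which has a close relative on the X chromosome, was on all 7 with -2.86 ± 0.27. The source of the germ cell signal was not tested. Without animals 1, 4 and 6, a choice made after the values were seen, 50 genes had an SD over 1.

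Skeletal muscle genes varied in another order, which overlapped in part with that of PRM1. ACTA1 and PRM1 had Pearson r = 0.74 over the 7 animals, and both were lowest in animal 2. Of 21 with a probe, 15 (71.4%) were above background on all 7 arrays, against 72.1% of all genes. Of these 15, 6 had an SD over 1, against 0.678% of all genes above background on 7 arrays. Animal 6 was highest for 12 of the 15, against 12.6% of all such genes. MYL1, a myosin light chain, was 1.98 in animal 6 and 1.33 in animal 4, with a median of 0.02 and a lowest value of -1.33. TNNC2, the calcium sensor of fast fibres, ranged from -2.05 to 1.45 with a median of -0.59. ACTA1, the actin of skeletal muscle, and MYH1, a myosin heavy chain, had 0.73 and 0.62 in animal 6, and -1.98 and -2.34 in animal 2. ATP2A1, the calcium pump of fast fibres, was even at -0.31 ± 0.28. MYBPC1 and XIRP2 were not above background on any array. Animals 6 and 4 were the 2 highest for 11 of the 15 genes, against 7.59% of all genes.

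Fat genes varied in yet another order. Of 23 adipocyte genes with a probe, 16 (69.6%) were above background on all 7 arrays, against 72.1% of all genes. Of these 16, 4 had an SD over 1, against 0.678% of all genes above background on 7 arrays. The 2 highest values were those of animals 3 and 4 for 8 of the 16, against 2.98% of all such genes. FABP4, the fatty acid carrier of adipocytes, was 2.09 in animal 3, 1.66 in animal 4 and between -0.91 and 0.48 in the other 5. CIDEC, a lipid droplet protein, was 0.94 and -0.01 in those animals and between -3.32 and -1.17 in the others. DGAT2, which makes triglycerides, ranged from -3.34 to -0.39. LPL, the lipase that takes up fat from blood, was 0.31 in animal 4 and between -3.11 and -1.51 in the others. PLIN1, the coat protein of lipid droplets, was -3.14 and -3.54 in animals 3 and 4 and above background on 4 of 7 arrays. Leptin, LEP, was not above background on any array. The mean over the 16 genes above background on all arrays was 0.44 and 0.36 in animals 3 and 4 and between -0.54 and -0.20 in the others. FASN, which builds fatty acids, was also highest in animals 3 and 4, but by little, at 2.91 and 2.89 against 2.40 to 2.79 in the others, and its 3 other probes had means between -5.19 and -3.07. CEBPA, a factor of adipocyte formation, was highest in animals 2 and 1, at 5.46 and 5.34, and its other probe had a mean of 0.97.

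Single members of the immature thymocyte and cortical epithelium lists had median SDs of 0.22 and 0.25, against 0.19 over all genes. A mean over many genes varies less than its members through averaging alone. The list means below therefore do not show whether single genes were level. The mean over the 25 immature thymocyte genes lay between 1.40 and 1.56, with an SD of 0.05, and was 1.44 and 1.45 in animals 3 and 4, which had the highest fat values, and 1.40 in animal 6, which had the highest muscle values. The mean over the 11 cortical epithelium genes lay between -0.42 and -0.15.

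**Figure D4:**
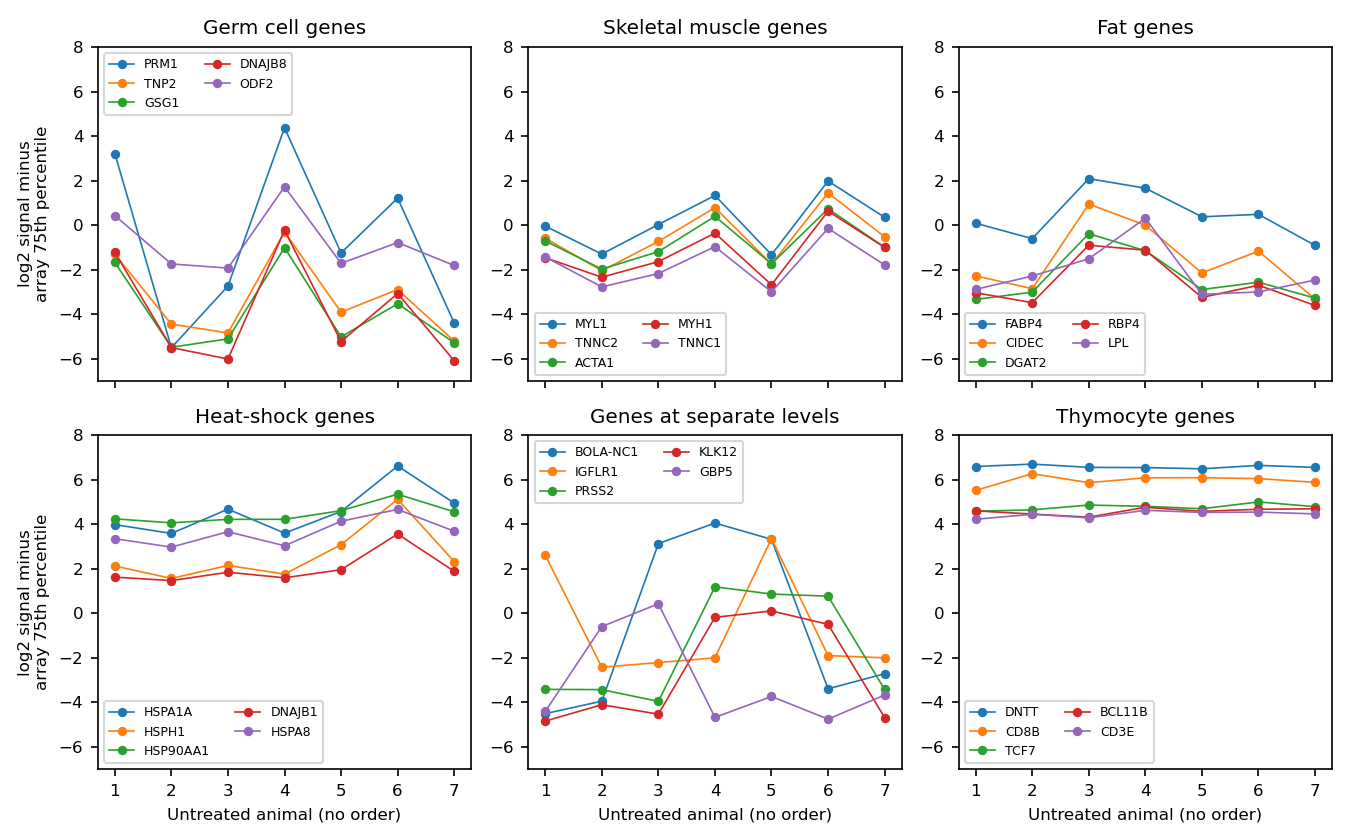
Value of 5 genes from each of 6 groups in the 7 untreated animals, as log2 signal minus the array's 75th percentile; lines only join the points of a gene, since the animals have no order. PRM1 and the other genes of the germ cell panel peak in animals 4 and 1, and the muscle genes in animals 6 and 4. The fat genes peak in animals 3 and 4 and the heat-shock genes in animal 6. The 5 genes picked for the thymocyte panel are level, and more variable thymocyte genes, such as SMPD3, ADA and RAG1, are not shown.

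Some genes sat at separate levels, with no animal in between. BOLA-NC1, a class I gene of the cattle MHC, was 3.13, 4.05 and 3.32 in animals 3, 4 and 5 and between -4.51 and -2.72 in the other 4, and its SD of 3.87 was the largest of all. MIC1, a gene related to MHC class I, was -4.62 and -4.23 in animals 6 and 7 and between -1.63 and -0.05 in the rest. IGFLR1, a receptor of the tumour necrosis factor type, was 2.60 and 3.35 in animals 1 and 5 and between -2.42 and -1.90 in the others. The proteases PRSS2 and KLK12 were high in the same 3 animals: PRSS2 was 1.19, 0.86 and 0.77 in animals 4, 5 and 6 and between -3.96 and -3.42 in the rest, and KLK12 was between -0.50 and 0.11 in those 3 and between -4.84 and -4.11 in the rest. The array describes the PRSS2 probe as pancreatic anionic trypsinogen. Of the 8 pancreas genes, 4 were above background on all 7 arrays, and 1 of these 4 was highest in animal 5 and none in animals 4 or 6.

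Other genes among the most variable were high or low in other sets of animals. GBP5, an interferon-induced GTPase which the array describes as similar to GBP2, was 0.42 and -0.60 in animals 3 and 2 and between -4.75 and -3.68 in the rest. DPP4, the protease known as CD26 on T cells, was -3.05 and -1.96 in animals 4 and 3 and between 0.14 and 1.76 in the rest. TATDN2, a putative nuclease, was also lowest in animals 4 and 3, at -3.91 and -3.75. TPRG1L was -3.11 and -3.09 in animals 5 and 3 and between -0.04 and 0.31 in the others. NTRK3, a neurotrophin receptor, was -1.23, -1.44 and -2.24 in animals 6, 5 and 2 and between -5.47 and -4.81 in the others. The receptor tyrosine kinase gene RET was 0.99 in animal 3, stood at the 75th percentile of the array in animal 4, and lay between -4.12 and -3.06 in the others, and of its 2 other probes 1 varied in the same way (mean -6.71, SD 2.13). PDK4, a kinase that saves glucose, was spread without separate levels, from -3.12 to 0.67. GSTO1, a glutathione transferase, was -3.86 in animal 5 alone, and its SD of 1.75 was 0.90 without that animal. Whether these genes differ in sequence or copy number between the animals was not tested.

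Genes whose order of animals was most like that of CD3E over the 7 animals were TCEA1 (Pearson r = 0.97), LIMK2, BRMS1, MARCHF2 and PPP6R2 (0.94), out of 10615 compared. Those most like RAG1 were NR6A1 (0.99), ELP6, MAPK8IP3, APOOL and GAL (0.99). These r values are the largest of many over 7 points and share the slides, so they are given as a description. LIMK2 and MAPK8IP3 had other probes with means of -6.66 and -3.17.

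Relations between defining genes, of different cells or of 1 cell type, were tested for 7 pairs over the 7 animals, and none passed. The strongest was that of ACTA1 and CKM, 2 genes of skeletal muscle, with Pearson r = 0.92 (exact two-sided permutation p = 0.0123, adjusted p = 0.0861 over the 7 pairs) and Spearman rho = 0.82 (exact p = 0.0341, adjusted p = 0.239). CKM was above background on 2 of 7 arrays. Without animals 4 and 6, the farthest from the median of ACTA1, r was 0.38, so that the relation rests on those animals. CD3E and CD79A had r = 0.74 (exact permutation p = 0.0651, adjusted p = 0.228; rho = 0.68, exact p = 0.110, adjusted p = 0.383), and 0.44 without animals 1 and 3. CD163 and HMOX1 had r = 0.68 (exact permutation adjusted p = 0.293) but rho = 0.11, and r = -0.77 without animals 3 and 5. RAG1 had r = -0.25 with the fat gene PLIN1, -0.03 with the collagen COL1A1 and 0.08 with the B cell gene MS4A1, and PRSS16 had r = 0.24 with KRT5 (exact permutation adjusted p from 0.808 to 0.954 for these 4). Slides held too few animals for a value within a slide.

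Part of the spread lay between slides, which held different animals. Any grouping of 7 animals into 3 sets puts some variance between the sets, and the share to expect was not computed. At the median 39.5% of a gene's variance between animals lay between slides, and the median SD was 0.16 once the mean of each slide was removed. The first principal component held 34.7% of the variance, with 92.5% of its spread between slides, and separated the 3 animals of slide 3 from the others. The second held 19.4%, with 4.76% between slides, and set animals 4 and 1 against animal 7. With limma, 952 of 15618 probes (6.1%) differed between slide 3 and slide 1, 36 higher (0.231%) and 916 lower (5.87%) on slide 3. The count was 0 without animal 1, 4, 5 or 7, 3 without animal 2, 651 without animal 6 and 952 without animal 3, which lay on slide 2. The slides held different animals, so that this is a difference between 3 animals and 3 others as much as between slides.

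**Figure D5:**
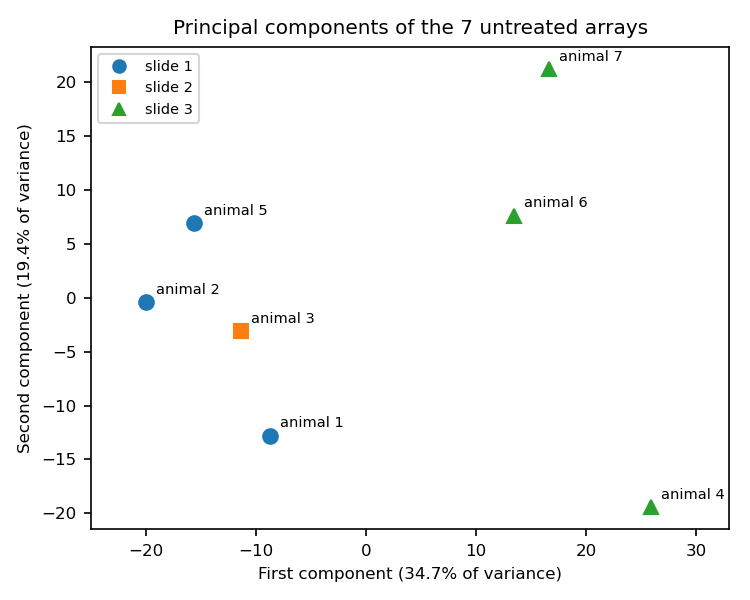
First and second principal component of the 7 untreated arrays, with slide by colour and shape. The animals of slide 3 lie on the right, between 13.44 and 25.87 on the first component, and those of slides 1 and 2 on the left.

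Among genes higher on slide 3 were GPNMB, a glycoprotein of lipid-laden macrophages (1.14 ± 0.11, SE), and CA3, the carbonic anhydrase of muscle and fat (1.498 ± 0.17), with limma adjusted p = 0.0184 and 0.0185. CENPV, HOXA9 and KLHL13 were also higher. Among those lower were ZNF24, a zinc finger factor (-2.78 ± 0.21), PEG3, a gene expressed from the paternal copy (-1.59 ± 0.13), CD300LG (-1.77 ± 0.12), STAMBP (-1.53 ± 0.11) and KDSR (-1.64 ± 0.13), each with limma adjusted p = 0.0184. Lists with a call were as follows: 1 of 25 immature thymocyte genes, which was RAG1, 2 of 17 general T cell genes, CD28 and THEMIS, 2 of 11 mature T cell genes, IL7R and S1PR1, 1 of 10 B cell genes, FCER2, 1 of 4 mast cell genes, MS4A2, 1 of 17 adipocyte genes, CEBPA, and 3 of 15 interferon-stimulated genes, MX2, OAS1X and RSAD2, all lower, against 5.87% of all probes. No gene was called among 11 of cortical and 16 of medullary and general epithelium, 19 of macrophages or 23 of fibroblasts and matrix. The same held for 17 endothelial, 14 smooth muscle and pericyte, 12 neutrophil, 11 dendritic cell, 10 cytotoxic and 9 erythroid and platelet genes. It also held for 6 nerve, 5 plasma cell, 4 thyroid and parathyroid and 2 gamma delta T cell genes. The 16 muscle genes tested had a median difference of 1.17 with 0 called, and the 72 ribosomal protein genes -0.23 with 3 called.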

How the data were processed

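RNA of thymus from 15 cows was hybridised to one-colour Agilent bovine arrays; the 7 untreated samples, 1 per animal, were used. The members and gene lists were chosen with earlier results of these data known. For every spot the deposited files give an intensity and flags (other values); per the file headers the software was Feature Extraction, version 9.5.1.1, with background subtracted in the processed intensity. R 2.11.1 is named per the submitters' processing notes; the authors' deposited table of intensity values is linear (column medians 197.7, 210.6, 234.9, 241.2, 244.2, 244.5 and 271.2), and its scaling and centring are unknown.

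Here log2 processed intensity of bovine spots was centred on each array's 75th percentile, outlier spots were left out and spots were averaged per probe. Symbols came from RefSeq gene tables and the files' names for 16412 of 21475 probes, 2917 of them through the description, and 5063 had none. The tools were data.table (version 1.17.8), limma 3.58.1 and R 4.3.3. limma compared slide 3 with slide 1 over 15618 probes above background on at least 4 arrays, at a Benjamini-Hochberg adjusted p of 0.05. Named genes were the 5 markers, the 25 brightest genes, the 20 with the largest and 10 with the smallest SD, per list up to 3 with the highest mean and up to 2 with the largest SD, the gene pairs, 5 most like CD3E and RAG1, and 5 slide genes in each direction. Other genes in the text were chosen after their values were seen. Of 8 fixed pairs, 1 had no named probe. On simulated data for the slide comparison (15618 probes), the test found 8% of differences of 0.5 log2, 64% of 1, 98% of 2 and 100% of 4, and 6.51% of its calls were false. The simulated noise was drawn for each probe alone, with nothing shared between the probes of an animal, so these shares need not hold for the real arrays. The number of arrays limits the precision. Other scalings, background corrections, filters and leaving out animals were tried. Replicate numbers follow sample order and pair nothing. The arrays of treated cows were not used here.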

Additional observations from a re-analysis of the deposited data

Results flagged for a closer look

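In 6 of 205 named genes 1 animal lay apart from the other 6 by Dixon's test, which marks about 1 in 20 groups by chance, and none of 35 list means did. CCL5 was low in animal 6 (1.04) and CD163 was low in animal 5 (-1.03). KRT5 (4.43), FN1 (3.35), HSP90AA1 (5.35) and HSPH1 (5.12) were high in animal 6. Over all 10616 genes measured on 7 arrays the test marked 535 (5.04%), 248 high and 287 low.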

How the results depend on the processing

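The 72 genes with an SD over 1 became 1035 with normexp background correction (median SD 0.307), 215 with no filter on dim probes, 130 with probes above background on at least 4 of 7 arrays, and 37 with normexp after high local backgrounds were replaced, an alternative chosen after seeing the data. Leaving out 1 animal gave 56 to 80. The cause was not tested. Against 952 probes called between slides (36 higher, 916 lower), the separate totals were 319 (40 higher, 279 lower) after quantile normalization, 73 (10 higher, 63 lower) after median centring, 0 (0 higher, 0 lower; 815 at an unadjusted p under 0.05) with normexp in limma, 7 (2 higher, 5 lower) on the authors' values, 530 (18 higher, 512 lower) with no filter, and 3336 (161 higher, 3175 lower) with normexp after replacement. Leaving out 1 animal gave 0 to 952 in all, 0 to 36 higher and 0 to 916 lower. Of the gene pairs, 0 passed, and 1 did with normexp. No paired analysis was possible because all samples belong to 1 group. Dim genes varied more than bright ones, in spots and in animals.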
